A study of Mus musculus and Homo sapiens with 30 samples.

Results

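The 10 mouse genes of selenium biology described here were measured in 2 mammary cell lines: Selenbp1, Selenop, Selenow, Selenos, Selenok, Selenom, Selenof, Sephs2, Secisbp2 and Msrb1. They were chosen by name from the 56980 gene IDs of the mouse count table, all 10 were found there, and all 10 passed the low-count filter in both lines. Selenbp1 was chosen because earlier values of these libraries moved in opposite directions in the 2 lines under lean adipocyte secretome. Its values are therefore given as a description with no test, and counts of tested genes are over the other 9.

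E0771, a mouse mammary cancer line, and NMuMG, a mouse mammary gland epithelial line, grew for 36 h and were then treated for 16 h. The control groups received standard growth medium. The lean and obese groups received a mixture of which 50% was secretome, that is medium conditioned by inguinal adipocytes, and the control medium held no secretome of any kind. There were 3 replicates of each medium in each line, or 18 libraries of poly(A) RNA. Both lines were kept in DMEM with 10% FBS, and for NMuMG insulin (10 mcg/ml) was added and glucose was given as 4.5 g/L, so line and base medium cannot be told apart in any difference between lines. The labels list NMuMG, like E0771, under breast cancer, do not state the species or diet of the fat donors, and do not say that replicates were separate cultures, so p-values measure only the spread between these libraries. In bulk RNA, fewer cells of a type and less RNA per cell cannot be told apart.

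Selenoproteins hold selenocysteine, an amino acid that is inserted at a UGA codon which would otherwise end translation. The insertion needs a stem-loop in the messenger RNA (the SECIS element), the protein that binds it (Secisbp2) and selenophosphate, the selenium donor made by Sephs2, which is itself a selenoprotein. Selenop is secreted and carries selenium between tissues, Selenow and Msrb1 are small cytosolic or nuclear redox proteins, and Selenos, Selenok, Selenom and Selenof reside in or at the endoplasmic reticulum. Selenbp1 binds selenium and oxidizes methanethiol, a sulfur gas, and is not a selenoprotein.

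The coding sequences show this division. In GENCODE M21 transcripts (GRCm38), 8 of the 10 genes had an in-frame TGA before their stop codon, each in a coding exon, and Selenbp1 and Secisbp2 had 0. The lines below give the in-frame TGA in capitals with up to 5 codons on each side in lower case, 5′ to 3′ on the coding strand, to show which genes need the decoding step and where in the protein it falls.
Selenow, codon 13 of 88 (chr7:15920464-15920466, minus strand): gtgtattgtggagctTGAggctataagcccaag
Selenom, codon 48 of 145 (chr11:3516273-3516275, plus strand): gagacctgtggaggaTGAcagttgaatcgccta
Selenof, codon 93 of 162 (chr3:144590645-144590647, plus strand): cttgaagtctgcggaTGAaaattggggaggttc
Sephs2, codon 63 of 452 (chr7:127273731-127273733, minus strand): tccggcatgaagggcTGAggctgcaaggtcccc
Msrb1, codon 95 of 116 (chr17:24740158-24740160, plus strand): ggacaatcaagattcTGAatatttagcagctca
Selenos, codon 189 of 190 (chr7:66088844-66088846, plus strand): ccatcatctggcggcTGAaactaa
Selenok, codon 92 of 94 (chr14:29973440-29973442, plus strand): ccaatggctggtggaTGAggaaggtaa
Selenop, the first of 10, codon 59 of 380 (chr15:3274848-3274850, plus strand): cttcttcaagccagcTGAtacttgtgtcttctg

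A cysteine codon stood 3 codons before the TGA in Selenow and Selenom and 2 codons before it in Selenof. In Selenos and Selenok the TGA was among the last codons, with 1 and 2 codons after it. Selenop had 10 in-frame TGA codons, of which the other 9 lay between codons 259 and 377.

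Library totals ran from 22929035 to 31094119 counts. Levels are given in CPM, read counts scaled to a common library size with TMM factors over the 18 libraries. Of the 6 epithelial markers, Krt8, Krt18 and Cdh1 were abundant in NMuMG (Krt18 2431 to 2888 CPM). Epcam, Cldn4 and Cldn3 were low there, at no more than 2.74, 2.54 and 0.116 CPM. In E0771, Krt8 was at 219.6 to 247.7 CPM, but Krt18 and Cdh1 did not exceed 0.0351 and 0.281 CPM. Epcam and Cldn4 did not exceed 0.126 and 0.124 CPM there, and Cldn3 had no count. Of the mesenchymal markers, Vim, Col1a1, Pdgfra and Pdgfrb were present in E0771, while Col1a2 and Dcn did not exceed 0.381 and 0.264 CPM. Vim was abundant in both lines, at 1828 to 2976 CPM in E0771 and 1796 to 2030 CPM in NMuMG. The summed level of 6 mesenchymal markers in E0771 was 3674 to 3835 CPM in control medium, 2209 to 2426 with lean and 3293 to 3592 with obese secretome, 4 of the 6 being above 1 CPM in each medium. In NMuMG the 6 epithelial markers summed to 6574 to 6960, 7329 to 7488 and 6263 to 6689 CPM in the same order. The 8 adipocyte markers summed to 8.30 to 10.3 CPM in control, 12.9 to 13.4 CPM in lean and 8.23 to 9.60 CPM in obese NMuMG libraries, with Lep and Plin1 at 0 counts and Adipoq at no more than 0.0715 CPM. In E0771 that sum was 8.33 to 9.33, 9.11 to 12.0 and 8.27 to 9.13 CPM, with Lep at 0 counts, and Lipe made up most of these sums. The 5 leukocyte markers summed to no more than 3.14 CPM in E0771 and 4.43 CPM in NMuMG, with Itgam at 0 counts, and the part of any of these shifts in the values below was not tested.

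Per kb of merged exons, the 10 genes differed in order between the lines. In control medium Selenow was highest in E0771, at 58.1 ± 2.92 CPM per kb (SD, n = 3), followed by Selenof at 37.3 ± 2.00 and Sephs2 at 35.8 ± 2.37, which did not differ beyond their spread. In NMuMG Selenop was highest at 108.0 ± 1.36 CPM per kb, followed by Sephs2 at 77.0 ± 1.87 and Selenof at 60.3 ± 0.945. Selenop was at 6.83 ± 0.888 CPM per kb in E0771, next to Secisbp2 at 6.56 ± 0.184. Selenbp1 went the other way, with 31.1 ± 2.53 CPM per kb in E0771 and 2.87 ± 0.443 in NMuMG, the lowest of the 10 there. These lengths are the merged exons of GENCODE M21, which may not be the annotation that was counted. Merged exons were 5819 bases for Selenof and 736 for Selenow. The Selenof transcript used for its coding sequence was far shorter, with 1415 overlapping windows of 100 bases. The place of Selenof in this order therefore depends on the length used, in both lines.

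**Figure D1:**
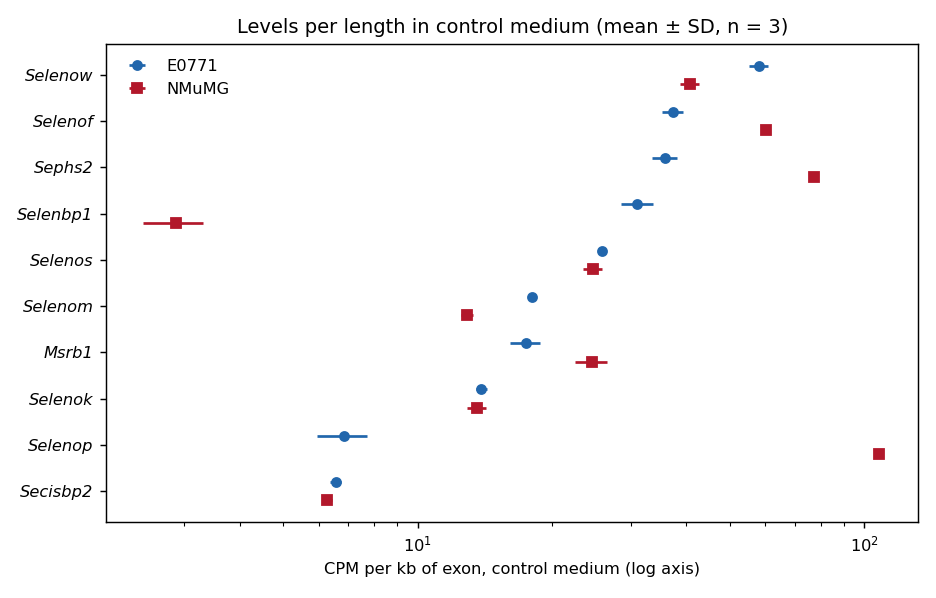
Level of each gene in control medium, as CPM per kb of exon on a log axis, with mean and SD over 3 libraries per line. Selenop (6.83 in E0771, 108.0 in NMuMG) and Selenbp1 (31.1 in E0771, 2.87 in NMuMG) lie farthest apart between the lines, in opposite directions.

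The threshold for a call was 0.05 on the p of edgeR's quasi-likelihood test, adjusted by Benjamini-Hochberg over all genes tested. With lean against obese secretome in E0771, 1 of the 9 rose and 3 fell, where 52.7% of all 13813 genes tested were called (25.8% higher, 26.9% lower): Selenos rose, and Selenop, Selenow and Selenok fell. In NMuMG, 4 of the 9 rose and 1 fell, where 35.0% of all 15014 genes were called (17.6% higher, 17.4% lower): Selenow, Selenos, Secisbp2 and Msrb1 rose and Sephs2 fell. The median log2 fold change over the 9 was -0.019 in E0771 and 0.18 in NMuMG, beside 0.0035 and -0.0023 over all genes tested.

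Against control medium, lean secretome gave 4 calls among the 9 in E0771, where 56.3% of all genes were called (27.3% higher, 29.0% lower): Selenos and Sephs2 rose, and Selenop and Selenow fell. In NMuMG it gave 5 calls, where 38.2% of all genes were called (19.1% higher, 19.1% lower): Selenow, Selenos and Secisbp2 rose, and Selenop and Sephs2 fell. The medians were -0.072 and 0.088, beside -0.013 and -0.0046 over all genes. The lean over obese and lean over control comparisons share the 3 lean libraries of each line.

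Obese secretome against control medium changed few genes in either line. In E0771, 2 of the 9 were called, Sephs2 higher and Selenow lower, where 2.61% of all genes were called (1.21% higher, 1.40% lower). In NMuMG edgeR called 0 of the 9, where 5.01% of all genes were called (2.34% higher, 2.66% lower). DESeq2 also called 0, and 2 of the 9 were under an unadjusted edgeR p of 0.05. The medians were 0.066 and -0.025, beside -0.00039 and 0.00036 over all genes.

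The change itself was compared between the lines in a fit of all 18 libraries. For lean over obese, 6 of the 9 genes differed, where 34.2% of all 16529 genes did (15.5% higher, 18.8% lower in NMuMG relative to E0771): Selenop, Selenow, Selenok, Selenom and Secisbp2 were higher in NMuMG relative to E0771, and Sephs2 lower. For lean over control 4 of the 9 differed, where 34.5% did (15.1% higher, 19.4% lower), and for obese over control 1 of the 9, Sephs2, where 1.69% did (0.623% higher, 1.06% lower). The plots of levels by library and of log2 fold changes show both patterns.

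**Figure D2:**
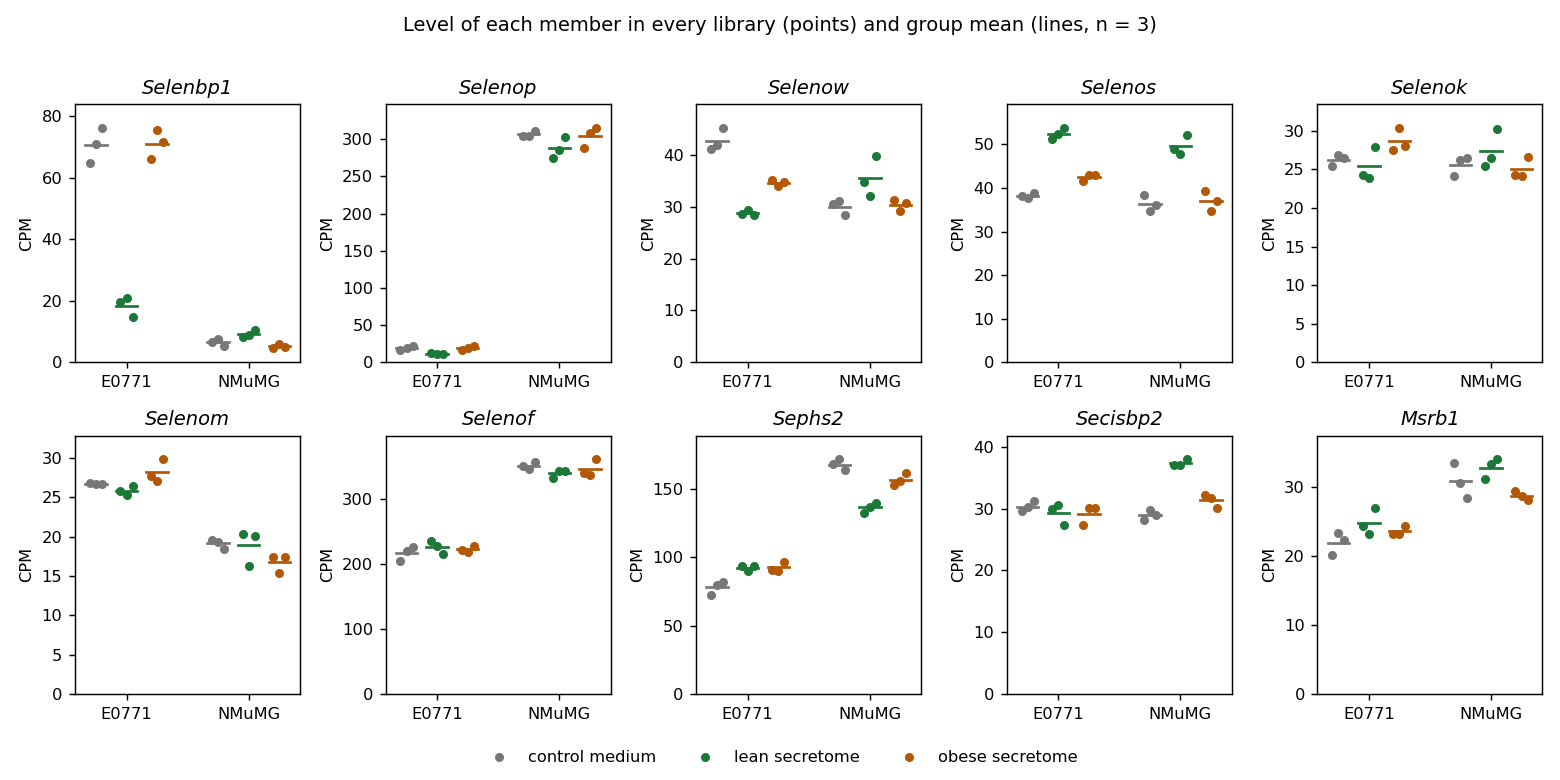
Level of each of the 10 genes in CPM (each vertical axis starts at 0) in every library, with points for libraries and lines for group means of 3, by line and medium. Selenos is higher with lean secretome in both lines, while Selenbp1 and Selenow are lower in E0771 and higher in NMuMG.

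Selenbp1, the methanethiol oxidase, was at 64.6, 71.0 and 76.1 CPM in the E0771 control libraries, at 19.5, 20.8 and 14.6 CPM with lean secretome and at 66.1, 75.5 and 71.4 CPM with obese secretome. The 3 lean libraries lay far below the other 6, and the control and obese libraries overlapped. The fitted level with lean secretome was 3.93-fold lower than with either other medium, a log2 fold change of -1.97 against obese secretome and of -1.98 against control medium. In NMuMG the level was low throughout: 6.65, 7.46 and 5.46 CPM in control medium, 8.18, 8.93 and 10.5 CPM with lean and 4.79, 6.06 and 5.10 CPM with obese secretome. All 3 lean libraries were above the other 6 there, while control and obese libraries overlapped. The fitted NMuMG level with lean secretome was 1.73-fold higher than with obese secretome and 1.41-fold higher than in control medium, log2 fold changes of 0.79 and 0.49.

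Selenbp1 has a near copy, Selenbp2, whose coding sequence matched it at 1401 of 1419 bases (98.73%). Of the 100-base windows of the Selenbp1 transcript, 344 of 1613 (21.3%) also occur in Selenbp2, so the division of reads between the pair is uncertain. Selenbp2 itself had few reads. In E0771 it had 13, 15 and 13 reads in control, 3, 0 and 1 in lean and 7, 10 and 5 in obese libraries, and in NMuMG between 8 and 29 in any library. Adding the counts of both genes gave log2 fold changes for lean over obese of -1.98 in E0771 and 0.77 in NMuMG, close to those of Selenbp1 alone.

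Selenop, the secreted selenium carrier, fell with lean secretome in E0771. Its levels there were 16.9, 19.5 and 21.9 CPM in control medium, 12.5, 11.5 and 11.0 CPM with lean and 17.1, 19.9 and 22.6 CPM with obese secretome. Every lean library was below every other E0771 library, and the control and obese libraries overlapped. The log2 fold change was -0.79 (SE 0.103, edgeR adjusted p = 1.61e-06) against obese secretome and -0.76 (SE 0.103, edgeR adjusted p = 2.35e-06) against control medium. In NMuMG, where the gene was far more abundant, levels were 305, 304 and 311 CPM in control medium, 274, 285 and 303 CPM with lean and 288, 308 and 315 CPM with obese secretome. The lean libraries there overlapped the obese ones and lay just below the control ones. The NMuMG change was -0.077 against obese secretome (approximate 95% interval -0.15 to -0.0039, edgeR adjusted p = 0.110) and -0.093 against control medium (edgeR adjusted p = 0.0439). The first passed without NMuMG lean replicate 3 (edgeR adjusted p = 0.0211) or obese replicate 1 (edgeR adjusted p = 0.0225). The latter call was lost in 9 of 15 alternatives, among them DESeq2 (adjusted p = 0.0806) and the fit of all 18 libraries (edgeR adjusted p = 0.317). It was also lost without control replicate 1, 2 or 3, lean replicate 1 or 2 or obese replicate 3 of NMuMG (edgeR adjusted p up to 0.260). The difference between the lines in the log2 fold change was 0.70 (SE 0.122, edgeR adjusted p = 0.000203) for lean over obese and 0.64 (SE 0.123, edgeR adjusted p = 0.000491) for lean over control.

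Selenow, a small thioredoxin-like selenoprotein, moved in opposite directions in the 2 lines. In E0771 it was at 41.1, 42.0 and 45.2 CPM in control medium, 28.6, 29.3 and 28.4 CPM with lean and 35.2, 33.9 and 34.7 CPM with obese secretome. The 3 groups did not overlap, with control highest, obese in between and lean lowest. The log2 fold change was -0.60 for lean over control (SE 0.0570, edgeR adjusted p = 3.65e-09), -0.28 for lean over obese (SE 0.0577, edgeR adjusted p = 0.000216) and -0.31 for obese over control (SE 0.0565, edgeR adjusted p = 0.00304). In NMuMG it was at 30.6, 31.0 and 28.3 CPM in control medium, 34.7, 32.1 and 39.7 CPM with lean and 31.2, 29.1 and 30.8 CPM with obese secretome. The lean libraries were above the others, by a small margin for the lowest of them. Selenow rose there by 0.23 on the log2 scale against obese secretome (SE 0.0651, edgeR adjusted p = 0.00625) and by 0.24 against control medium (SE 0.0643, edgeR adjusted p = 0.00269). Both NMuMG calls were lost without lean replicate 3, the library with the highest level (edgeR adjusted p = 0.0975 and 0.0534, log2 fold changes 0.14 and 0.16). The difference between the lines was 0.49 for lean over obese (SE 0.0901, edgeR adjusted p = 2.65e-05) and 0.81 for lean over control (SE 0.0889, edgeR adjusted p = 1.21e-09). For obese over control it was 0.32 (SE 0.0897) and missed the threshold (edgeR adjusted p = 0.0518).

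Of the genes that make and decode selenocysteine, Sephs2 fell and Secisbp2 rose in NMuMG with lean secretome. Sephs2, which makes selenophosphate, was at 168, 172 and 163 CPM in NMuMG control libraries, 132, 137 and 140 CPM with lean and 152, 155 and 162 CPM with obese secretome. The lean libraries were lowest with no overlap, and the obese ones lay between. Sephs2 fell there by 0.30 on the log2 scale against control medium (SE 0.0363, edgeR adjusted p = 3.09e-08) and by 0.20 against obese secretome (SE 0.0366, edgeR adjusted p = 5.68e-05). In E0771 it was at 72.2, 79.5 and 82.2 CPM in control medium, 93.5, 89.7 and 93.4 CPM with lean and 90.9, 89.9 and 96.7 CPM with obese secretome. There both secretomes lay above control medium and overlapped each other. It rose in E0771 by 0.22 with lean (SE 0.0489, edgeR adjusted p = 0.000509) and by 0.24 with obese secretome (SE 0.0491, edgeR adjusted p = 0.00882), each against control medium. The obese call was lost without E0771 control replicate 1 (edgeR adjusted p = 0.105) or obese replicate 3 (edgeR adjusted p = 0.0956). Sephs2 differed between the lines in all 3 comparisons, by -0.19 for lean over obese (edgeR adjusted p = 0.0113), -0.54 for lean over control (edgeR adjusted p = 2.56e-09) and -0.35 for obese over control (edgeR adjusted p = 0.000895).

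Secisbp2, which binds the SECIS element, was at 28.2, 29.7 and 28.9 CPM in NMuMG control libraries, 37.1, 37.0 and 38.0 CPM with lean and 32.1, 31.8 and 30.1 CPM with obese secretome. The lean libraries stood clearly above the other 6. It rose by 0.37 on the log2 scale against control medium (SE 0.0550, edgeR adjusted p = 1.39e-06) and by 0.26 against obese secretome (SE 0.0553, edgeR adjusted p = 0.000366). In E0771 all libraries lay between 27.3 and 31.2 CPM and the media overlapped, with a lean over control change of -0.076 (approximate 95% interval -0.20 to 0.049, edgeR adjusted p = 0.321). The lines differed by 0.42 for lean over control (SE 0.0833, edgeR adjusted p = 8.79e-05) and by 0.25 for lean over obese (SE 0.0836, edgeR adjusted p = 0.0167). The latter was lost without any of 4 libraries, namely E0771 lean replicate 3, E0771 obese replicates 2 and 3 and NMuMG obese replicate 3 (edgeR adjusted p from 0.0506 to 0.0666).

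**Figure D3:**
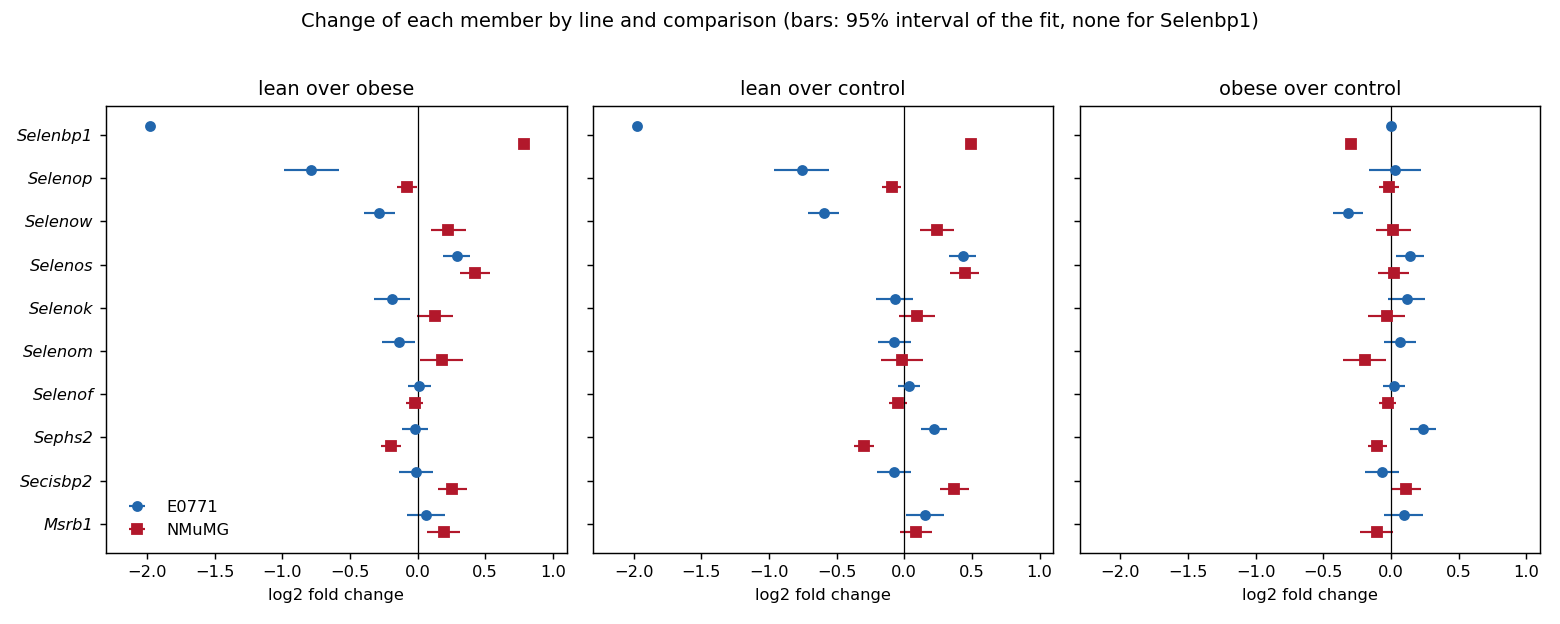
Log2 fold change of each gene in the 3 comparisons, with circles for E0771 and squares for NMuMG, and bars for approximate 95% intervals, not drawn for Selenbp1. Selenos lies to the right in both lines for both lean comparisons, Selenow lies left in E0771 and right in NMuMG, and most values for obese over control lie near 0.

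Among the genes of the endoplasmic reticulum, Selenos was the one that rose in both lines. Selenos anchors the p97 ATPase and Derlin proteins at the membrane in the removal of misfolded proteins. In E0771 it was at 38.0, 37.8 and 38.9 CPM in control medium, 51.3, 52.3 and 53.8 CPM with lean and 41.6, 42.9 and 42.9 CPM with obese secretome. In NMuMG it was at 38.4, 34.7 and 36.2 CPM, 48.9, 47.7 and 52.1 CPM, and 39.4, 34.7 and 36.9 CPM in the same order. Every lean library of either line was above every other library of that line. Selenos rose by 0.43 in E0771 (SE 0.0511, edgeR adjusted p = 1.16e-07) and by 0.45 in NMuMG (SE 0.0551, edgeR adjusted p = 4.29e-08) against control medium. Against obese secretome it rose by 0.29 in E0771 (SE 0.0506, edgeR adjusted p = 3.25e-05) and by 0.43 in NMuMG (SE 0.0558, edgeR adjusted p = 1.90e-07). These 4 calls held in each of 15 alternatives. The difference between the lines was -0.011 for lean over control (SE 0.0764, edgeR adjusted p = 0.992) and 0.12 for lean over obese (SE 0.0764, edgeR adjusted p = 0.250), which does not show that the lines responded alike.

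Selenok, which works with Selenos and with the palmitoyltransferase Zdhhc6, changed little. In E0771 it was at 25.5, 26.9 and 26.4 CPM in control medium, 24.3, 24.0 and 28.0 CPM with lean and 27.6, 30.4 and 28.1 CPM with obese secretome. A single lean library overlapped the obese ones. The lean over obese change was -0.19 (SE 0.0683, edgeR adjusted p = 0.0242), a call lost in DESeq2 (adjusted p = 0.0521) and in edgeR without E0771 lean replicate 1, lean replicate 2 or obese replicate 2 (adjusted p from 0.0962 to 0.130). NMuMG libraries ranged from 24.1 to 30.2 CPM with no call, the lean over obese change being 0.13 (approximate 95% interval -0.0061 to 0.26). The lines differed by 0.30 (SE 0.100, edgeR adjusted p = 0.0173), which was lost without E0771 lean replicate 1 or 2, E0771 obese replicate 2 or NMuMG lean replicate 3 (edgeR adjusted p from 0.0521 to 0.0665).

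Selenom, a thioredoxin-fold protein of the lumen, ranged from 25.3 to 29.8 CPM over the E0771 libraries and from 15.4 to 20.4 CPM over those of NMuMG, with no call in either line. Its lean over obese change was -0.14 in E0771 (approximate 95% interval -0.26 to -0.020, edgeR adjusted p = 0.0579) and 0.18 in NMuMG (approximate 95% interval 0.018 to 0.34, edgeR adjusted p = 0.0893). The first passed without E0771 obese replicate 2 (edgeR adjusted p = 0.0492) and the second without NMuMG lean replicate 2 (edgeR adjusted p = 0.00827). The difference between the lines was 0.30 (SE 0.104, edgeR adjusted p = 0.0210), and was lost without E0771 obese replicate 3, NMuMG lean replicate 1 or NMuMG obese replicate 2 (edgeR adjusted p from 0.0748 to 0.0963).

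Selenof, a partner of the glycoprotein-folding sensor Uggt1, was among the most abundant of the 10, from 204 to 236 CPM in E0771 and from 332 to 360.4 CPM in NMuMG. No comparison called it. For lean over control its approximate 95% interval reached from -0.049 to 0.12 on the log2 scale in E0771 and from -0.11 to 0.018 in NMuMG, and for lean over obese from -0.071 to 0.095 and from -0.088 to 0.043.

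Msrb1, which reduces methionine sulfoxide in proteins, was at 33.6, 30.6 and 28.4 CPM in NMuMG control libraries, 31.2, 33.4 and 34.0 CPM with lean and 29.4, 28.7 and 28.2 CPM with obese secretome. The lean libraries were above the obese ones and overlapped the control ones. It rose by 0.19 against obese secretome (SE 0.0623, edgeR adjusted p = 0.0136), a call lost without NMuMG lean replicate 3 (edgeR adjusted p = 0.0557) or obese replicate 3 (edgeR adjusted p = 0.0534). In E0771 it ranged from 20.1 to 26.9 CPM, and the lean over control change was 0.16 (approximate 95% interval 0.014 to 0.30, edgeR adjusted p = 0.0699). That value passed in the fit of all 18 libraries (edgeR adjusted p = 0.0302) and without E0771 lean replicate 2 (edgeR adjusted p = 0.0338).

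The remaining mouse selenoproteins were followed as a list of 16, of which 10 were tested in E0771 and 12 in NMuMG. For lean over control, 3 rose and 6 fell in E0771, where 27.3% of all genes tested rose and 29.0% fell, and 4 rose and 3 fell in NMuMG, where 19.1% rose and 19.1% fell. For lean over obese 3 rose and 6 fell in E0771 (25.8% and 26.9% of all genes), and 4 rose and 3 fell in NMuMG (17.6% and 17.4%). The median change for lean over control was -0.42 in E0771 and -0.036 in NMuMG. The medians over all genes were -0.013 and -0.0046. Obese over control gave 2 lower genes in E0771, Gpx1 (-0.23, edgeR adjusted p = 0.0311) and Selenoh (-0.27, edgeR adjusted p = 0.0191), and 1 in NMuMG, Dio3. Of all genes tested in that comparison, 1.40% were lower in E0771 and 2.66% in NMuMG. The Gpx1 call was lost without any single control or obese library of E0771 (edgeR adjusted p from 0.0690 to 0.133), and that of Selenoh without control replicate 2 or 3 or obese replicate 2 or 3 (edgeR adjusted p from 0.0664 to 0.122).

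Among these 16, Selenoo, the mitochondrial AMPylase, had the largest fall for lean over control in E0771, from 33.5 ± 2.40 CPM in control medium to 12.5 ± 2.05 CPM with lean secretome (SD, n = 3), and was at 32.3 ± 1.04 CPM with obese secretome. Its log2 fold change for lean over control was -1.45 in E0771 (SE 0.0899, edgeR adjusted p = 2.40e-11) and -0.063 in NMuMG (SE 0.0672, edgeR adjusted p = 0.497), and the difference was 1.36 (SE 0.118, edgeR adjusted p = 5.68e-11). Gpx1, the cytosolic glutathione peroxidase, fell in E0771 and rose in NMuMG, with levels of 83.5 ± 1.44 and 54.5 ± 5.74 CPM in E0771 and of 118 ± 4.20 and 169 ± 0.550 CPM in NMuMG for control and lean (SD, n = 3). The difference between the lines for lean over control was 1.13 (SE 0.0784, edgeR adjusted p = 1.37e-12). Gpx4, the phospholipid hydroperoxidase that limits ferroptosis, was singled out after its values were seen and also moved in opposite directions, by -0.21 in E0771 (SE 0.0445, edgeR adjusted p = 0.000260) and 0.20 in NMuMG (SE 0.0327, edgeR adjusted p = 7.57e-06).

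Of the 3 thioredoxin reductases, Txnrd1 and Txnrd3 rose in both lines with lean secretome, and Txnrd2 fell in both. Txnrd2, the mitochondrial enzyme, named after its values were seen, fell against control medium by 0.65 in E0771 (SE 0.0734, edgeR adjusted p = 5.37e-08) and by 0.34 in NMuMG (SE 0.0756, edgeR adjusted p = 0.000400). Txnrd1, the cytosolic enzyme, went from 266 ± 11.6 CPM in control medium to 536 ± 12.7 CPM with lean secretome in E0771 and from 344 ± 1.79 to 649.9 ± 5.46 CPM in NMuMG (SD, n = 3). With obese secretome Txnrd1 lay between, with a wider spread, at 320 ± 51.1 CPM in E0771 and 445 ± 76.6 CPM in NMuMG. Its log2 fold changes for lean over control were 0.98 (SE 0.106, edgeR adjusted p = 0.000141) and 0.92 (SE 0.113, edgeR adjusted p = 0.000868). Txnrd3, the reductase of testis, rose by 0.81 in E0771 (edgeR adjusted p = 2.17e-09) and by 0.51 in NMuMG (edgeR adjusted p = 9.71e-05). Selenoh, a nuclear selenoprotein, fell by 0.71 in E0771 (edgeR adjusted p = 1.18e-09) and by 0.36 in NMuMG (edgeR adjusted p = 3.79e-05). Dio3, the deiodinase that inactivates thyroid hormone, passed the filter in NMuMG alone, at 30.3 ± 0.550 CPM in control medium, 13.3 ± 1.48 CPM with lean and 19.4 ± 1.23 CPM with obese secretome. It fell by 1.19 with lean (SE 0.0736, edgeR adjusted p = 4.89e-15) and by 0.64 with obese secretome (SE 0.0709, edgeR adjusted p = 1.33e-07) against control medium.

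**Figure D4:**
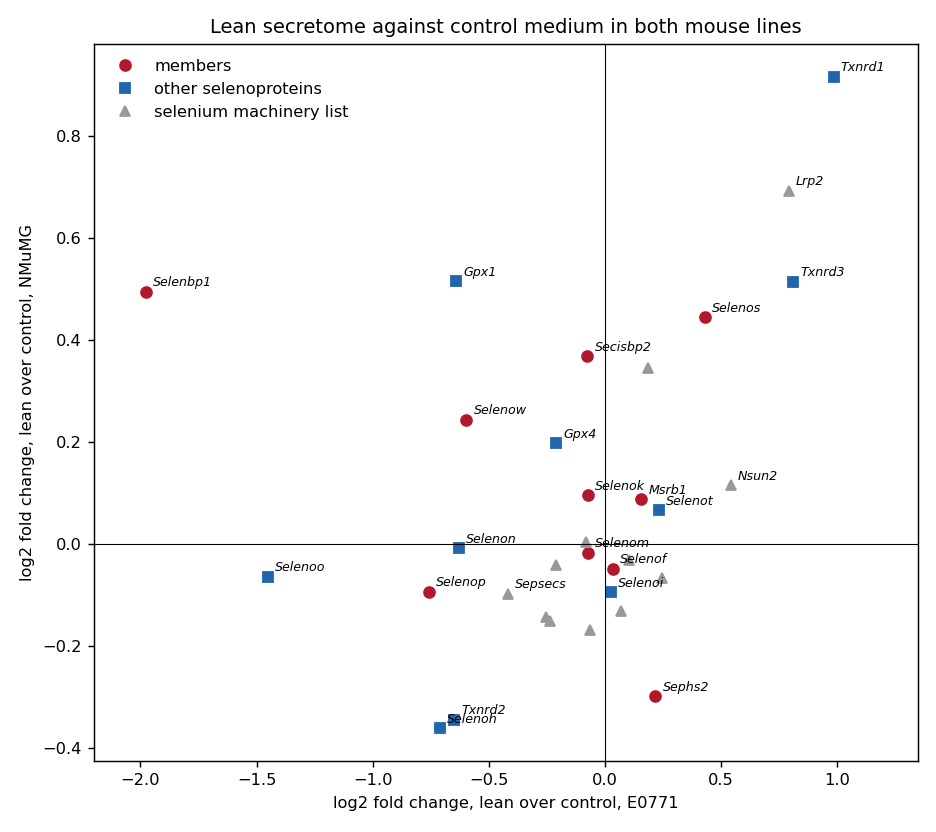
Log2 fold change for lean over control in E0771 (horizontal) and NMuMG (vertical) for the 10 described genes (circles), the other selenoproteins tested in both lines (squares) and the selenium machinery list (triangles). Selenbp1, Selenow, Gpx1 and Gpx4 lie in the upper left, lower in E0771 and higher in NMuMG, and Selenos, Txnrd1, Txnrd3 and Lrp2 lie in the upper right.

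Of 12 further genes that take up selenium or make and decode selenocysteine, all tested in both lines, 4 rose and 4 fell in E0771 for lean over control, and 3 rose and 2 fell in NMuMG. These 8 and 5 calls of 12 lie near the shares over all genes, 56.3% and 38.2%. For lean over obese the counts were 4 and 5 in E0771 and 1 and 2 in NMuMG, where 52.7% and 35.0% of all genes were called. For obese over control they were 1 and 0 in E0771 and 2 and 1 in NMuMG, where 2.61% and 5.01% of all genes were called. Lrp2, an uptake receptor for Selenop in kidney, rose in both lines for lean over control, by 0.79 in E0771 (SE 0.166, edgeR adjusted p = 0.00618) and by 0.69 in NMuMG (SE 0.101, edgeR adjusted p = 1.70e-06). Lrp8, the Selenop receptor of brain and testis, rose by 0.19 (edgeR adjusted p = 0.00162) and 0.35 (edgeR adjusted p = 0.00232) in the same comparison. Nsun2, which methylates transfer RNAs, rose by 0.54 in E0771 (edgeR adjusted p = 9.04e-12) and by 0.12 in NMuMG (edgeR adjusted p = 0.00624). In NMuMG the obese over control changes of Lrp8 and Nsun2 were 0.30 and 0.15. Their lean over obese changes there were 0.049 and -0.030, so these NMuMG rises were not shown to be particular to lean secretome. Without NMuMG control replicate 1, 2 or 3, lean replicate 2 or obese replicate 1, the obese over control call of Lrp8 was lost. The edgeR adjusted p of Lrp8 then ran from 0.052 to 0.144. The call of Nsun2 was lost without obese replicate 1 (edgeR adjusted p = 0.0557). Sepsecs, which makes selenocysteine on its transfer RNA, fell by 0.42 in E0771 (SE 0.0631, edgeR adjusted p = 4.19e-06) and was at -0.097 in NMuMG (edgeR adjusted p = 0.237). Sephs1, the homolog of Sephs2 without selenocysteine, fell by 0.25 in E0771 (edgeR adjusted p = 3.69e-05) and by 0.14 in NMuMG (edgeR adjusted p = 0.00387).

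Scly, the lyase that frees selenium from selenocysteine, went apart with obese secretome. Against control medium it rose by 0.28 in E0771 (SE 0.0629, edgeR adjusted p = 0.0159) and fell by 0.22 in NMuMG (SE 0.0551, edgeR adjusted p = 0.0106), and the difference between the lines was -0.51. The E0771 call was lost without control replicate 1 or 2 or obese replicate 2 or 3 (edgeR adjusted p up to 0.160), and that of NMuMG without control replicate 3 or obese replicate 1 (edgeR adjusted p up to 0.0937).

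Further lists that touch the described genes were counted in the same way. Among 12 proteins of endoplasmic reticulum quality control that work with Selenos, Selenok or Selenof, 11 were tested in each line, and for lean over control 7 rose and 3 fell in E0771 and 7 rose and 1 fell in NMuMG. Of all genes tested, 27.3% rose and 29.0% fell in E0771 and 19.1% rose and 19.1% fell in NMuMG. The p97 ATPase Vcp rose by 0.26 in E0771 (edgeR adjusted p = 7.68e-07) and by 0.25 in NMuMG (edgeR adjusted p = 6.39e-08). Zdhhc6, the partner of Selenok, rose by 0.32 in E0771 (edgeR adjusted p = 5.27e-06) and was at 0.023 in NMuMG (edgeR adjusted p = 0.677). Derl1, a Derlin of the same membrane complex, rose by 0.27 in E0771 (edgeR adjusted p = 5.16e-06) and by 0.12 in NMuMG (edgeR adjusted p = 0.0122). Sel1l, the adaptor of the ubiquitin ligase Syvn1, fell by 0.15 in E0771 (edgeR adjusted p = 0.00268) and rose by 0.11 in NMuMG (edgeR adjusted p = 0.0211), the latter lost without NMuMG control replicate 2 or 3 or lean replicate 3 (edgeR adjusted p from 0.0582 to 0.0961). Syvn1 itself rose by 0.23 in NMuMG (edgeR adjusted p = 7.05e-06) and was at -0.094 in E0771 (edgeR adjusted p = 0.0874). Herpud1, an organizer of the same complexes, fell by 1.15 in E0771 (SE 0.0536, edgeR adjusted p = 4.43e-14) and was at -0.15 in NMuMG (edgeR adjusted p = 0.0321), where the call was lost in 6 of 15 alternatives, among them DESeq2 (adjusted p = 0.0771) and the fits without control replicate 1 or 2 (edgeR adjusted p = 0.124 and 0.105) or lean replicate 1 or 2. Of 8 genes of thiol and sulfide metabolism, counted without Selenbp2 because it shares reads with Selenbp1, 3 rose and 2 fell of 5 tested in E0771, and 3 rose and 2 fell of 8 in NMuMG, beside the same shares of all genes. Mpst, a sulfurtransferase, fell by 0.82 in E0771 (SE 0.0674, edgeR adjusted p = 4.52e-10) and by 0.38 in NMuMG (SE 0.0652, edgeR adjusted p = 1.39e-05), and Ethe1, the persulfide dioxygenase, rose by 0.70 (edgeR adjusted p = 2.10e-09) and 0.35 (edgeR adjusted p = 4.82e-05). Sqor, which oxidizes hydrogen sulfide and was tested in NMuMG alone, rose by 1.25 (edgeR adjusted p = 6.25e-05). Of 3 other methionine sulfoxide reductases, 2 were tested in E0771 and 3 in NMuMG. For lean over control 0 rose and 1 fell in each line, beside the same shares of all genes. Msra fell by 0.62 in E0771 (edgeR adjusted p = 7.03e-05) and by 0.41 in NMuMG (edgeR adjusted p = 0.0126). The NMuMG call was lost in DESeq2 (adjusted p = 0.0539) and without NMuMG control replicate 1 (edgeR adjusted p = 0.0685). For lean over obese Msrb3 rose in NMuMG by 0.25, where 17.6% of all genes rose, and was at 0.0056 in E0771.

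Likeness to Selenbp1 was measured as Pearson's correlation of log2 CPM, centred within each line, over 18 libraries and 9408 genes, and is given as a description. These genes were tested in both lines and had a mean log2 CPM of at least 2 over the 18 libraries. Libraries of a medium share their treatment, so the 18 points are not independent. Among the genes most alike were Parp3 (r = 0.979), Thsd4 (r = 0.977), Dab2ip (r = 0.974) and Arf5 (r = 0.974). Thsd4 was near the floor in E0771, with means of 1.75 CPM in control, 0.573 in lean and 1.66 in obese libraries. It met the level limit through NMuMG, where these means were 21.7, 29.7 and 19.3 CPM. The most opposed were Usp7 (r = -0.975), Polr2b (r = -0.973), Cand1 (r = -0.972), Dis3 (r = -0.971) and Grwd1 (r = -0.970). Of the other 9 described genes Selenop (r = 0.854) and Selenow (r = 0.811) were nearest, and Sephs2 (r = -0.425) the most opposed. In NMuMG alone, Selenop and Selenbp1 had opposite signs. Lean over obese was -0.077 for Selenop and 0.79 for Selenbp1, and lean over control -0.093 and 0.49.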

How the data were processed

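Poly(A) RNA libraries were prepared with a directional kit and sequenced as paired 150 bp reads, per the labels' protocols. The authors deposited raw counts per Ensembl gene ID, without normalization. The submitters' processing notes name cutadapt 1.16, STAR 2.7.9a, featureCounts 1.6.3 and the build GRCm39. The strand setting and annotation release are not given in the sources used here. Directional counting that ignored strand would mix overlapping antisense genes.

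Symbols came from GENCODE M21 (GRCm38) and matched 52073 of 56980 IDs, which held 99.68% of counts. Coding sequences came from the same release and promoters from RefSeq on GRCm38.p6. The 12 SkBr3 libraries were not analysed here.

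Groups followed the labels. Each line was fitted with all 3 media in edgeR 4.0.16 (R 4.3.3) with filterByExpr, TMM (18-library factors 0.949 to 1.05) and a robust quasi-likelihood F test, with Benjamini-Hochberg adjustment per comparison at 0.05, tested on simulated data. Differences between lines came from a fit of 18 libraries in 6 groups. The prior count for log2 CPM was 2. The common biological coefficient of variation was 0.0468 in E0771 and 0.0388 in NMuMG, and replicates differed by more than counting error (chi-square per degree of freedom 2.22 to 7.71). Alternatives were DESeq2 1.42.0, its size factors, no filter, only the groups compared, all 18 libraries, a replicate block, each library left out, and Selenbp1 summed with Selenbp2. The genes and lists were chosen with earlier results of these data known. Named were the 10 genes, up to 4 called genes per list and line with the largest change, genes sharing reads with them, and the 5 most alike and 5 most opposed to Selenbp1, of which 1 is not reported here.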

Additional observations from a re-analysis of the deposited data

Results flagged for a closer look

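Several genes responded differently in the 2 lines; each value is the log2 fold change in NMuMG minus that in E0771, and these differences share libraries between comparisons. Selenbp1 was lower in every lean library of E0771, and higher in every lean library of NMuMG, than in the control and obese libraries of that line. The difference was 2.75 for lean over obese and 2.44 for lean over control. Selenbp1 was chosen for this, and the difference was not tested. For lean over obese, the edgeR test of the difference gave 0.70 for Selenop, 0.49 for Selenow, 0.30 for Selenok, 0.30 for Selenom, 0.25 for Secisbp2 and -0.19 for Sephs2. For lean over control it gave 0.64 for Selenop, 0.81 for Selenow, 0.42 for Secisbp2 and -0.54 for Sephs2. For obese over control it gave -0.35 for Sephs2.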

How the results depend on the processing

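Across the alternatives, 231 recomputed counts of calls stayed within 1.5 times the reported count and 15 did not. DESeq2 gave 2 other selenoproteins called for obese over control in NMuMG, and 2 genes of the 9 differing between lines for obese over control, as did the fit with no low-count filter. Leaving out single libraries gave 1 to 2 of the 9 and 0 to 2 other selenoproteins for obese over control in E0771, 1 to 2 other selenoproteins in NMuMG, and 1 to 2 of the 9 for the difference between lines. The cause was not tested. Selenbp1 for obese over control in E0771, reported at -0.0015, was 0.0060 with DESeq2, 0.0047 with DESeq2 size factors, 0.0045 with no low-count filter, 0.0097 with all 18 libraries and -0.057 to 0.066 without single libraries. Secisbp2 for lean over obese in E0771 was 0.0031 with all 18 libraries and -0.057 to 0.040 without single libraries. Without single libraries, changes near 0 crossed it for lean over obese in E0771 (Selenof -0.019 to 0.050, Sephs2 -0.042 to 0.0099, Msrb1 -0.00022 to 0.11) and in NMuMG (Selenof -0.041 to 0.013), and for lean over control (Selenof in E0771 -0.0054 to 0.076, Selenom in NMuMG -0.076 to 0.079). Same-numbered replicates did not pair: their residuals correlated at -0.0947 to 0.110 over 9 pairs in E0771 and -0.0285 to 0.0250 over 9 pairs in NMuMG. With a replicate block the calls among the 9 stayed at 4, 4 and 2 in E0771 and 5, 5 and 0 in NMuMG for lean over obese, lean over control and obese over control. Standard errors of the log2 changes of the 9 genes ran from 0.0335 to 0.103, which sets the size of change that 3 libraries a group can show.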

Other observations

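Promoters of the 10 genes (250 bases before the start, RefSeq on GRCm38.p6, both strands, letters only) were searched for motifs. The endoplasmic reticulum stress response element, CCAAT and CCACG with 9 bases between them, was in none of them and in 0.113% of 32851 promoters. The core of the antioxidant response element, TGACNNNGC, was found in Selenok alone and in 10.2% of all promoters. The part CCACG was in Selenos, Selenok, Selenof, Secisbp2 and Msrb1 and in 28.3% of all promoters. The part CCAAT was in Selenbp1, Selenos, Selenof, Sephs2 and Msrb1 and in 33.8% of all promoters. Selenos, Selenof and Msrb1 held both parts. Any link between these motifs and the changes was not tested.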
